A study of Drosophila melanogaster with 18 samples.

Results

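The genes described here are mio and Wdr24, which encode subunits of the GATOR2 complex. Their rows in the deposited table, FBtr0077835 for mio (annotation CG7074) and FBtr0085543 for Wdr24 (annotation CG7609), were chosen by identifier as 2 of 16637 transcript rows. A gene table from RefSeq pairs each identifier with its symbol, and lists 1 transcript for mio and 2 for Wdr24. Which of the 2 the Wdr24 row measures was not examined.

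GATOR2 sits in the pathway through which cells report amino acid supply to the growth kinase complex TORC1. A second complex, GATOR1 (Nprl2, Nprl3 and Iml1), switches off the Rag GTPases that bring TORC1 to the lysosome, and GATOR2 opposes GATOR1, so that TORC1 activity is sustained when nutrients are present. In Drosophila, mio is named for the missing oocyte phenotype and is needed for the oocyte to keep its identity in the ovary. Wdr24, a protein with WD40 repeats, promotes TORC1 activity in germ line and somatic cells and takes part in lysosome function.

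The study asked how transcript levels change when insulator proteins, which mark and separate chromatin domains, are depleted by RNA interference. It used Kc cells, which derive from Drosophila melanogaster embryos, and 1-colour NimbleGen arrays. Of the targets, CP190 is recruited to insulator sites by proteins that recognise DNA themselves, among them BEAF, CTCF and SuHw. Double-stranded RNA was added on each of 3 days to all cells, control cells included, with collection on day 4. Control cells, labelled wild type, received double-stranded RNA against beta-galactosidase. The other groups were single knockdowns of BEAF, CP190, CTCF or SuHw and double knockdowns of BEAF+CP190, BEAF+CTCF, CTCF+CP190 or SuHw+CP190, with 2 arrays from independent experiments in each of the 9 groups. The 6 arrays of control, BEAF and CP190 form a first set and the 12 arrays of the other groups a second, after the way the cell line is written in the labels.

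Replicates correlated across rows at 0.998 to 0.999, pairs from other groups of the same set at 0.989 to 0.998, and pairs that cross the sets at 0.978 to 0.990, so that the last 2 ranges overlap slightly. Every group lies in 1 set, so in a comparison of CTCF, SuHw or any double knockdown with control, what belongs to the set and what to the knockdown cannot be told apart. The targeted genes were not among the rows with a name, so the depth of the knockdowns was not analysed here. None of 17 marker genes of Kc cells and other cell types had a named row either, so the cell type was taken from the labels. The log2 signal carries no detection call, and 2 arrays per group limit the precision. In bulk RNA, fewer cells with a transcript and less transcript per cell cannot be told apart.

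Both genes gave signals well above the low end of the table. In control arrays the log2 signal of mio was higher than that of 68.7% of rows and that of Wdr24 higher than 59.5%. Replicates lay close together, with a pooled SD within groups of 0.051 for mio and 0.066 for Wdr24 on the log2 scale, against a median of 0.088 over all rows.

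The levels of mio split by array set. Its log2 signal was 11.31 and 11.24 in the control arrays. The BEAF arrays gave 11.19 and 11.22. In the CP190 arrays it was 11.41 and 11.28. The first-set arrays thus ran from 11.19 to 11.41 with a median of 11.26, and the CP190 and control arrays overlapped while both BEAF arrays lay below both control arrays. After CTCF knockdown mio was at 11.05 and 11.01. After SuHw knockdown it was at 11.04 and 10.92. In the BEAF+CP190 arrays it was at 10.98 and 10.99. These groups overlapped or lay close to each other, and every one of their arrays was below every first-set array. BEAF+CTCF arrays gave 10.96 and 10.95. CTCF+CP190 arrays gave 10.90 and 10.88, and SuHw+CP190 arrays 10.90 and 10.84. The last 2 groups held the lowest mio signals and overlapped each other. Across the 12 second-set arrays the median was 10.95 and the range 10.84 to 11.05.

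In Wdr24 the first set held the spread. The control arrays were at log2 signals of 10.56 and 10.40, the widest gap between replicates of any group for this gene. The BEAF arrays were at 10.56 and 10.62 and the CP190 arrays at 10.78 and 10.70. Both knockdowns lay above both control arrays, CP190 clearly and BEAF by a margin far smaller than the gap between the controls. The CTCF arrays were at 10.38 and 10.37. SuHw arrays gave 10.43 and 10.36, and BEAF+CP190 arrays 10.32 and 10.44. The levels of these 3 groups overlapped each other. The upper SuHw and BEAF+CP190 arrays lay above the lower control array, and both CTCF arrays lay below it. BEAF+CTCF arrays were at 10.40 and 10.32 and CTCF+CP190 arrays at 10.47 and 10.33. SuHw+CP190 arrays, at 10.26 and 10.32, were the lowest group. The 12 second-set arrays had a median of 10.37 and a range of 10.26 to 10.47, and the 6 first-set arrays a median of 10.59 and a range of 10.40 to 10.78, so that only the lower control array reached into the second set.

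**Figure D1:**
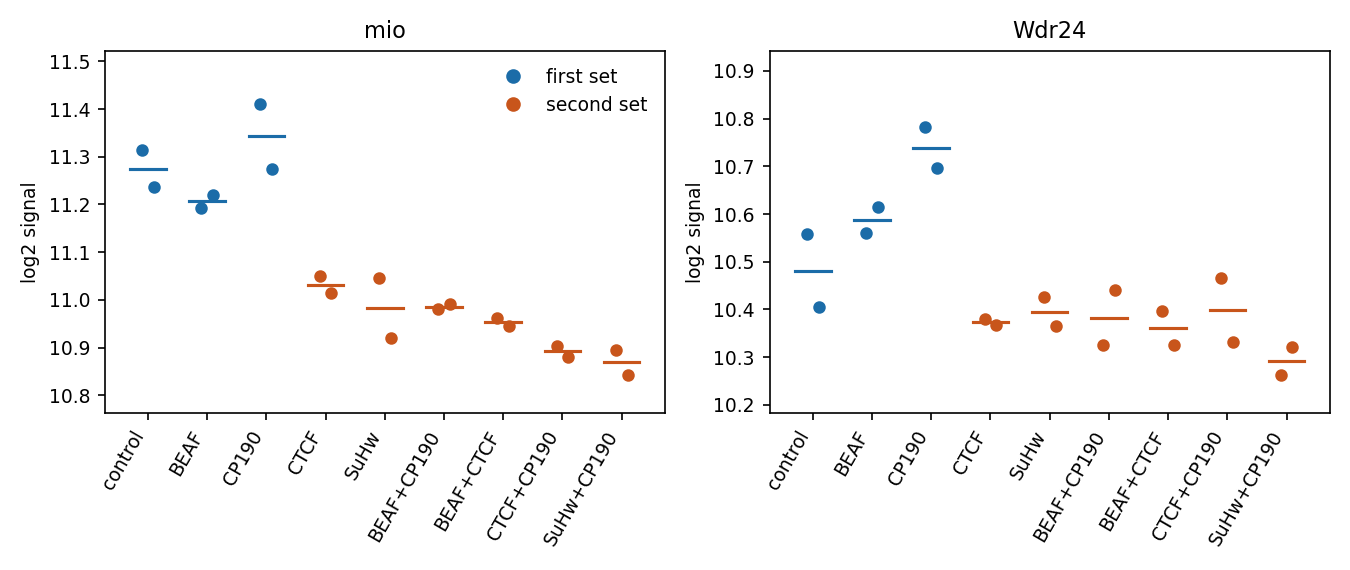
Log2 signal of mio (left) and Wdr24 (right) in each of the 9 groups, as points for the 2 replicate arrays and a bar for their mean, blue for the first set and orange for the second. The vertical axes do not start at 0 and span the same number of log2 units. For mio all 12 second-set arrays, up to 11.05, lie below the 6 first-set arrays, from 11.19; for Wdr24 the lower control array, at 10.40, lies within the second set.

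Ordered by mean, mio ran from CP190 (11.34 ± 0.096, SD, n = 2) through control (11.28 ± 0.056), BEAF (11.21 ± 0.020), CTCF (11.03 ± 0.026), BEAF+CP190 (10.99 ± 0.0071), SuHw (10.98 ± 0.089), BEAF+CTCF (10.95 ± 0.012) and CTCF+CP190 (10.89 ± 0.017) to SuHw+CP190 (10.87 ± 0.037). Of the 8 steps between neighbours, 4 had overlapping replicates and 1 was called, that from BEAF down to CTCF, which is also the step between the sets and at which 25.8% of all rows were called in the same direction. A call here means an adjusted p under 0.05 from limma with Benjamini-Hochberg adjustment over all rows. That step measured 0.17 on the log2 scale (SE 0.060, limma, Benjamini-Hochberg adjusted p = 0.0288). For both genes the neighbours were set by the order of these same means, so the calls at the steps are a description and not an independent test. Over the 8 steps of mio the share of all rows called in either direction ran from 5.36% to 50.2%. Wdr24 ran from CP190 (10.74 ± 0.061) through BEAF (10.59 ± 0.039), control (10.48 ± 0.11), CTCF+CP190 (10.40 ± 0.096), SuHw (10.40 ± 0.044), BEAF+CP190 (10.38 ± 0.082), CTCF (10.37 ± 0.0093) and BEAF+CTCF (10.36 ± 0.050) to SuHw+CP190 (10.29 ± 0.041). None of its 8 steps was called and 5 had overlapping replicates, while 10.8% to 52.2% of all rows were called in either direction at these steps. The first 3 places belonged to first-set groups for both genes, with CP190 on top and SuHw+CP190 at the bottom of each order. The steps at these ends were not called for either gene, and how many rows share the same ends was not examined.

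BEAF and CP190 against control are the comparisons with control that stay within a set. CP190 knockdown raised Wdr24 by 0.26 on the log2 scale, a 1.20-fold higher signal (SE 0.070, limma, Benjamini-Hochberg adjusted p = 0.0124), with both CP190 arrays above both control arrays. In that comparison 15.5% of all rows were called higher and 34.6% had both knockdown arrays above both control arrays, so such calls were common. It rests on single arrays: without control replicate 2 the difference was 0.18 (adjusted p = 0.131) and without CP190 replicate 1 it was 0.21 (adjusted p = 0.0846), neither called, and with only the 4 arrays compared in the fit the adjusted p was 0.0595. The level of mio after CP190 knockdown differed from control by 0.068 (95% interval -0.063 to 0.20, adjusted p = 0.42) and was not called. Without CP190 replicate 1 that difference was -1e-04.

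BEAF knockdown was not called for either gene. For mio the log2 difference from control was -0.069 (95% interval -0.20 to 0.062) and for Wdr24 it was 0.11 (95% interval -0.045 to 0.26), with adjusted p of 0.384 and 0.242. For both genes the 2 groups did not overlap, mio lower as in 33.4% of rows and Wdr24 higher as in 41.8%. Of all rows 41.7% were called in either direction. The Wdr24 interval leaves room for a difference as large as its rise after CP190 knockdown. Compared directly, BEAF arrays were below CP190 arrays for both genes, by 0.14 for mio (95% interval of the log2 difference -0.27 to -0.0060) and 0.15 for Wdr24 (-0.30 to 0.00072). Neither difference was called (adjusted p = 0.175 and 0.198), while 10.8% of rows were called in either direction.

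The other 6 comparisons with control cross the sets and share the same 2 control arrays. In each of them mio was lower than in control and was called, and in none did the arrays overlap. The log2 difference was -0.24 for CTCF (SE 0.060, limma, Benjamini-Hochberg adjusted p = 0.00396), where 25.8% of rows were called lower and 36.8% had both arrays below both control arrays. For SuHw it was -0.29 (adjusted p = 0.000976), beside 29.1% of rows called lower and 38.7% not overlapping in that direction. For BEAF+CP190 it was also -0.29 (adjusted p = 0.00112), beside 25.9% and 36.9%. With backgrounds of this size, lower signals and separated arrays were common among all rows of these comparisons. BEAF+CTCF arrays were at -0.32 (adjusted p = 0.000523), with 25.5% of rows called lower and 36.4% not overlapping. CTCF+CP190 arrays were at -0.38 (adjusted p = 0.000136), with 24.8% and 35.9%, and SuHw+CP190 arrays at -0.41 (adjusted p = 8.17e-05), with 25.9% and 37.1%. The last corresponds to a signal 0.754 times that of control. None of the 6 calls held when the effects were taken from second-set arrays alone, without control arrays, through the additive model fitted to that set. The values were then -0.16 to -0.32, still negative in each, with limma adjusted p from 0.062 to 0.217. Outside BEAF+CTCF, at 0.0641, the unadjusted limma p ran from 0.0118 (SuHw+CP190) to 0.0438 (CTCF). The SEs were larger in that fit, at 0.069 to 0.11 against 0.060. It called 4.93% to 31.7% of all rows in either direction for these 6 effects.

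Wdr24 was also lower than control in all 6 comparisons across the sets, by less. It was called in SuHw+CP190 only, at -0.19 (SE 0.070, limma, Benjamini-Hochberg adjusted p = 0.036) or 0.877 times the control signal, a direction called in 25.9% of rows. That call was lost without control replicate 1 (-0.11, adjusted p = 0.296), without SuHw+CP190 replicate 1 (-0.16, adjusted p = 0.163) and without SuHw+CP190 replicate 2 (-0.22, adjusted p = 0.0591). From second-set arrays alone, by the additive model, it was -0.14 (SE 0.13, limma adjusted p = 0.53), where 16.2% of rows were called in either direction. In the other 5 the log2 differences were -0.11 for CTCF, -0.086 for SuHw, -0.099 for BEAF+CP190, -0.12 for BEAF+CTCF and -0.082 for CTCF+CP190, with adjusted p from 0.167 to 0.353, against the backgrounds given for mio. The control arrays of Wdr24 lie 0.15 apart, and in SuHw, BEAF+CP190 and CTCF+CP190 the groups overlapped with them. Whether mio and Wdr24 differ in these comparisons was not tested.

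Taking the mean of the 6 second-set groups minus the mean of the 3 first-set groups uses all 18 arrays. The difference was -0.32 on the log2 scale for mio (SE 0.030, limma, Benjamini-Hochberg adjusted p = 5.12e-07), or 0.80 times the first-set signal, and -0.24 for Wdr24 (SE 0.035, adjusted p = 4.34e-05), or 0.849 times. Of all rows 34.6% were called lower in this comparison. In 11.0% of rows every second-set array lay below every first-set array, as it did for mio and did not for Wdr24. The difference cannot be assigned to knockdown or to set.

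**Figure D2:**
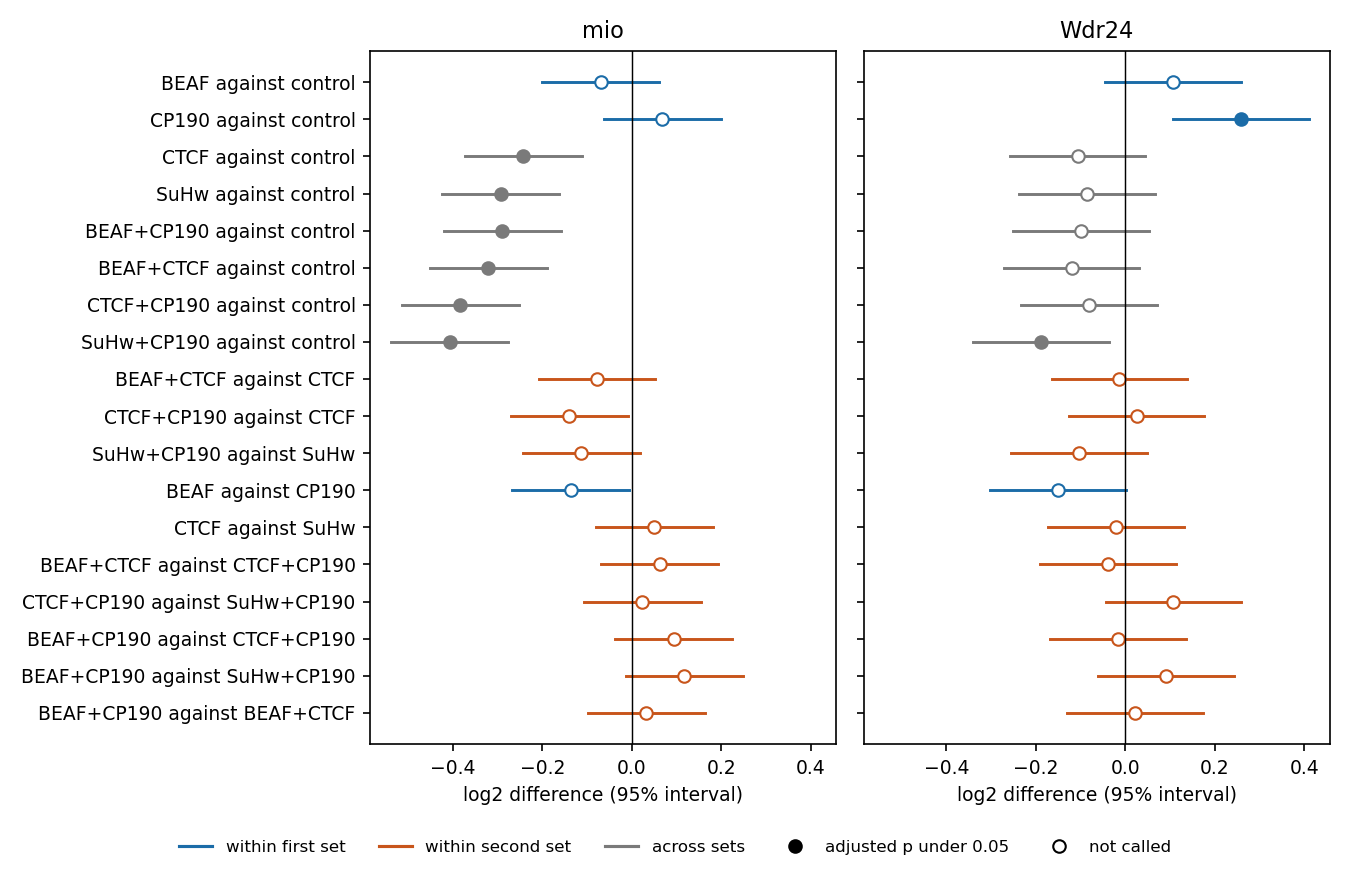
Log2 difference between groups for mio (left) and Wdr24 (right), with its 95% interval from limma, in the 8 comparisons with control and 10 further comparisons within a set. Filled points have an adjusted p under 0.05. The called mio differences, from -0.24 to -0.41, are those across the sets (grey), while within a set (blue and orange) the 1 called difference is that of Wdr24 in CP190 against control, at 0.26.

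Adding a second knockdown to CTCF or SuHw compares arrays of the second set without control arrays. Neither gene was called in any of the 3 comparisons. Adding CP190 knockdown to CTCF left mio at a log2 difference of -0.14 (95% interval -0.27 to -0.0092, limma, Benjamini-Hochberg adjusted p = 0.114), and adding it to SuHw at -0.11 (-0.24 to 0.017, adjusted p = 0.183). The groups did not overlap in either comparison, mio lying below in both, as did 33.6% and 28.2% of rows. Of all rows 24.4% and 28.4% were called in either direction. Without an adjustment 1 of the 3 mio comparisons and 0 of the 3 Wdr24 comparisons had a p under 0.05. Wdr24, which rose after CP190 knockdown alone, was at 0.025 when CP190 was added to CTCF (95% interval -0.13 to 0.18) and at -0.10 when it was added to SuHw (-0.26 to 0.048). Adding BEAF to CTCF gave -0.078 for mio (-0.21 to 0.053) and -0.013 for Wdr24 (-0.17 to 0.14), where 21.9% of rows were called in either direction.

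An additive model fitted to the 12 second-set arrays, with a term for each protein, gathers these effects. Its CP190 term for mio was -0.13 on the log2 scale (SE 0.040, limma, Benjamini-Hochberg adjusted p = 0.0303), a call that 36.1% of all rows also reached in either direction. The same term for Wdr24 was -0.039 (95% interval -0.15 to 0.072, adjusted p = 0.587). The CP190 difference of mio was 0.068 against control in the first set (95% interval -0.063 to 0.20) and -0.13 on CTCF or SuHw knockdown in the second. That of Wdr24 was 0.26 and -0.039. The first-set interval of mio and the second-set interval of Wdr24 span both signs, so opposite signs were not shown for either gene. Whether these CP190 terms differ from the first-set differences was not tested. The CTCF+CP190 and SuHw+CP190 interactions described next compare the CP190 difference alone with that on CTCF or SuHw knockdown. Neither was called for mio, and for Wdr24 only that in SuHw+CP190 was called. The model's other terms for mio were -0.071 for BEAF, -0.16 for CTCF and -0.19 for SuHw, none of them called, while 19.8%, 8.69% and 4.93% of all rows were called for these terms in either direction. The terms for Wdr24 were -0.046, -0.061 and -0.10, also not called. Only BEAF+CP190 arrays in the set lack both CTCF and SuHw knockdown, so these terms assume that effects add.

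The 4 interactions, the double minus both singles plus control, were negative for both genes. For Wdr24 in SuHw+CP190 the interaction was -0.36 (SE 0.099, limma, Benjamini-Hochberg adjusted p = 0.0151), with 12.7% of rows called lower. It sets a CP190 difference of -0.10 in the presence of SuHw knockdown, measured in the second set, against 0.26 alone, measured in the first. Whether the SuHw knockdown or the set carries the change in the CP190 difference cannot be told apart. The call was lost without control replicate 2 (-0.28, adjusted p = 0.0711), without CP190 replicate 1 (-0.32, adjusted p = 0.0539) and with only the groups compared in the fit (adjusted p = 0.0569). In CTCF+CP190 the interaction was -0.23 for Wdr24 and -0.21 for mio (adjusted p = 0.101 and 0.0903, with 27.4% of rows called in either direction), and in SuHw+CP190 it was -0.18 for mio (adjusted p = 0.132). BEAF+CTCF gave -0.12 for Wdr24 and -0.0089 for mio, with adjusted p of 0.391 and 0.951, and 28.8% of rows were called in either direction. In BEAF+CP190 the interaction was called for both genes, at -0.29 for mio (adjusted p = 0.0133) and -0.46 for Wdr24 (adjusted p = 0.00189), beside 24.9% of rows called lower. The mio call was lost without control replicate 2 (-0.25, adjusted p = 0.0574) and without CP190 replicate 1 (-0.22, adjusted p = 0.0553). There both singles and control lie in the first set and the double in the second, so a difference between the sets enters the value in full.

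The other 6 comparisons run between second-set groups were not called for either gene. CTCF against SuHw gave log2 differences of 0.050 for mio (95% interval -0.081 to 0.18) and -0.021 for Wdr24 (-0.17 to 0.13), where 16.8% of rows were called in either direction. On the CP190 background, BEAF+CP190 was above SuHw+CP190 by 0.12 for mio (-0.014 to 0.25) and by 0.091 for Wdr24 (-0.061 to 0.24), and CTCF+CP190 was above SuHw+CP190 by 0.023 and 0.11. For both genes the BEAF+CP190 and SuHw+CP190 arrays did not overlap, higher in BEAF+CP190 as in 29.6% of rows, while 7.69% of rows were called in either direction. CTCF+CP190 against SuHw+CP190 called 5.36% of rows. BEAF+CP190 against CTCF+CP190 gave 0.094 for mio and -0.017 for Wdr24, with 5.09% of rows called. BEAF+CP190 against BEAF+CTCF gave 0.032 and 0.022, with 10.8% called, and BEAF+CTCF against CTCF+CP190 gave 0.062 and -0.038, with 12.2% called. Over the 12 comparisons run within a set, mio was never called by limma, with 2 unadjusted p under 0.05, and Wdr24 was called 1 time, with 1. The 95% intervals of the 12 reached from -0.27 to 0.25 for mio and from -0.30 to 0.41 for Wdr24. The upper end for Wdr24 is that of CP190 against control, its called difference. The SE of each difference was 0.060 for mio and 0.070 for Wdr24.

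Whether the genes move together was read within each set, since the sets form separate clusters. Over the 6 first-set arrays mio and Wdr24 correlated with Pearson's r of 0.645 (exact permutation test, two-sided p = 0.183) and Spearman's rho of 0.371 (exact p = 0.497). Over the 12 second-set arrays Pearson's r was 0.42 (permutation test, two-sided p = 0.174) and rho 0.503 (permutation p = 0.0987). Adjusted over the 4 relations by Benjamini-Hochberg, the permutation p-values were 0.244, 0.497, 0.244 and 0.244, so a relation within a set was not shown. Without the 2 arrays whose mio signal lay farthest from the median, r was 0.222 in the first set and 0.375 in the second. In the first set r rests on CP190 replicate 1, the highest array for both genes, without which it was 0.19. In the second set r ran from 0.329 to 0.661 as each array was left out, highest without CTCF+CP190 replicate 1. The permutation p of these runs, not adjusted, ran from 0.0275 for that array to 0.325. All these permutation tests shuffled single arrays, so they treated the replicates of a group as independent, which they are not.

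Replicates of a group tended to deviate together. In 8 of the 9 groups the replicate with the higher mio signal also had the higher Wdr24 signal, the exception being SuHw+CP190. How many other rows follow either gene as often was not examined, so this is not shown to be particular to the 2 genes. Deviations of the 18 arrays from their group means correlated at 0.601 between the genes, given as a description, since the 2 deviations of a group mirror each other and the genes share each array's normalization. The signal of mio minus that of Wdr24 on 1 array ran from 0.58 to 0.83 log2 units in the first set (median 0.63) and from 0.44 to 0.67 in the second (median 0.59). Both control arrays, at 0.76 and 0.83, lay above all other arrays in this difference, the nearest being CTCF replicate 1 at 0.67. CTCF+CP190 replicate 1, at 0.44, was the lowest. How many other pairs of rows set the control arrays apart in this way was not examined. These differences describe the rows and not relative amounts of the RNAs.

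**Figure D3:**
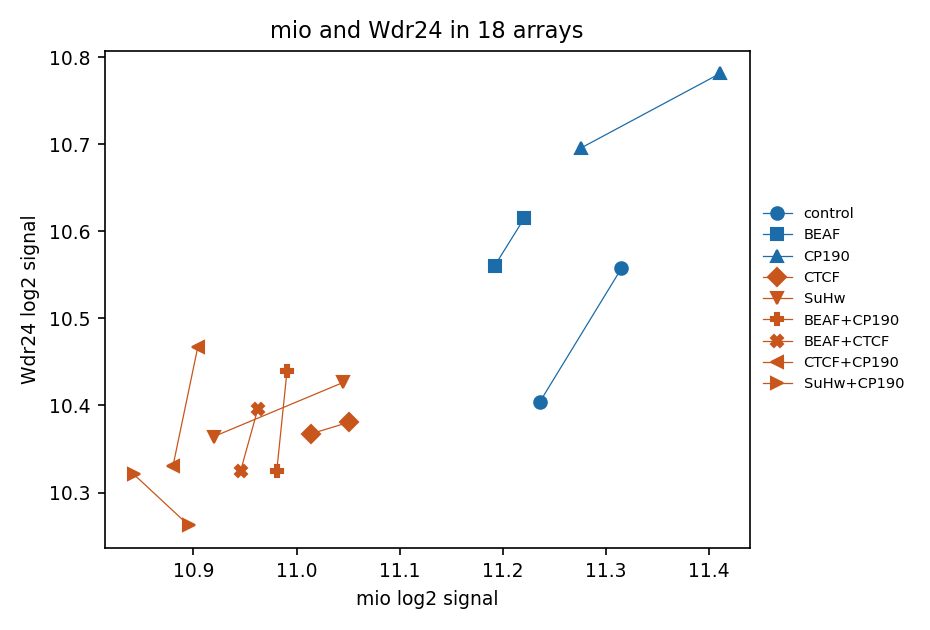
Log2 signal of Wdr24 against that of mio in the 18 arrays, 1 symbol per group, with a line joining the 2 replicates of a group, blue for the first set and orange for the second. The sets form separate clusters, and the line rises from left to right in 8 of the 9 groups; SuHw+CP190 is the exception.

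Each gene was also placed among rows of like control signal, those whose mean control log2 signal lay within 0.25 of its own. There were 1078 such rows for mio and 848 for Wdr24. In SuHw+CP190 against control, 15.1% of the rows like mio were lower than mio, whose log2 difference was -0.41, and the quartiles of those rows were -0.24 and 0.24. In CTCF+CP190, 15.4% were lower, in BEAF+CTCF 20.5%, in BEAF+CP190 22.1%, in SuHw 23.5% and in CTCF 27.3%. The level of mio thus lay below or near the lower quartile of like rows in all 6 comparisons across the sets, and well inside their range. Of the like rows 28.8% to 33.6% were called lower in those comparisons. Within the first set 34.3% of like rows were lower than mio in BEAF against control and 54.2% in CP190 against control.

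Wdr24 lay between the quartiles of its like rows in 7 of the 8 comparisons with control, CP190 being the exception. In CP190 against control 81.4% of like rows were lower than Wdr24, and 25.9% of them were called higher. In BEAF against control 56.0% were lower. In the 6 comparisons across the sets 30.7% (SuHw+CP190) to 40.0% (SuHw) of like rows were lower, while 29.0% to 33.1% of them were called lower. In the comparison of the sets themselves 18.2% of rows like mio were lower than mio and 25.6% of rows like Wdr24 were lower than Wdr24.

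**Figure D4:**
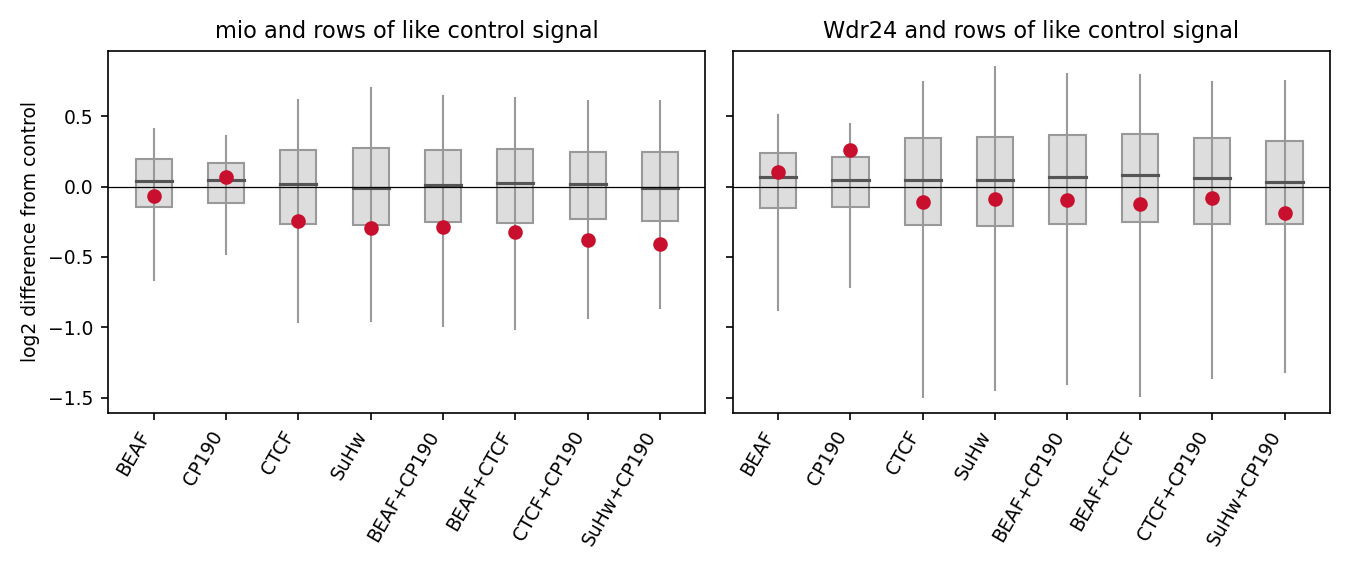
Log2 difference from control of mio (left) and Wdr24 (right) as red points, over rows whose control log2 signal lay within 0.25 of the gene's own. Boxes span the quartiles of those rows with the median as a line, and thin lines run from their 5th to their 95th percentile. The mio point lies below or close to the box's lower edge in the 6 comparisons across the sets, and the Wdr24 point lies above the box in CP190, where 81.4% of like rows were lower.

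Likeness of pattern was measured as Pearson's correlation over the 18 arrays after each set's mean had been subtracted. By this measure Wdr24 correlated with mio at 0.518, which ranked it 302nd among the 16636 other rows for mio, and ranked mio 648th for Wdr24. The rows most like mio were FBtr0071157 (0.771) and FBtr0087771 (0.759), and those most like Wdr24 were FBtr0080435 (0.826) and FBtr0086231 (0.807), none of which has a name here. Of these 4 rows, chosen for their likeness, FBtr0071157, FBtr0080435 and FBtr0086231 had their highest group mean in CP190 arrays, at log2 signals of 9.34, 11.23 and 10.51, and their lowest in SuHw+CP190 arrays, at 8.79, 11.06 and 10.04. FBtr0087771 was highest in CTCF arrays, at 12.01, and lowest in BEAF arrays, at 10.90. Only 14 rows carry a symbol that is not an annotation number, mio and Wdr24 included. The most alike of them, after the other GATOR2 gene, were sle, which encodes a nucleolar protein, for mio (0.316) and the histone deacetylase gene HDAC3 for Wdr24 (0.476). Among all other rows sle ranked 1793rd for mio and HDAC3 974th for Wdr24, so neither is a close match. Without the subtraction the measure mostly follows the sets: 172 rows then correlated with mio above 0.9, led by FBtr0112979 (0.957) and FBtr0073838 (0.953), and 5 with Wdr24, led by FBtr0079683 (0.912) and FBtr0079215 (0.908). In that order Wdr24 was 544th for mio and mio 67th for Wdr24. Arrays of a group are replicates, so these correlations describe 9 groups more than 18 separate conditions.

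Of 22 genes listed for the GATOR and TORC1 pathway, mio and Wdr24 were the 2 with a named row. The other GATOR2 subunits, the GATOR1 genes, the Rag GTPases and the TORC1 subunits were not analysed here.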

How the data were processed

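The values are the log2 signals per transcript that the authors deposited, 1 column for each of the 18 arrays. Per the submitters' processing notes, Partek and RMA were used. The sources used here give neither versions nor whether all arrays were normalized together. As RMA makes signal distributions alike across arrays, differences are relative to the other transcripts.

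No further normalization or filter was applied. Group means of the 18 arrays were estimated in 1 linear model (limma 3.58.1 under R 4.3.3, moderated by eBayes, 9 residual and 3.68 prior degrees of freedom), and two-sided p-values were adjusted by Benjamini-Hochberg over all 16637 rows of each of 23 comparisons. The fit was tested on simulated data. Correlations were tested with scipy 1.17.1, exactly for 6 arrays (720 pairings) and with 100000 resamples for 12. The 2 genes and the lists were chosen with earlier results of these data known, and the rule for named rows took the 2 most alike in each order and the most alike named rows. RefSeq names (Release 6 assembly) matched 16 rows to 1 symbol, 28 to several and 16593 to none. Since the build of the arrays is not given, no coordinates are printed. Alternatives were other sets of arrays in the fit, the replicate block, quantile normalization, median centring, an intensity trend with robust spread, a filter on dim rows, leaving out each array, and the additive model within the second set.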

Additional observations from a re-analysis of the deposited data

Results flagged for a closer look

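Of the tested interactions, 3 were called, all of them with CP190 knockdown (limma with Benjamini-Hochberg). Every double except BEAF+CTCF includes CP190, so most of the tested interactions do too, and all 3 calls use the same CP190 and control arrays. For Wdr24 the SuHw+CP190 interaction was -0.36 (adjusted p = 0.0151), in a comparison that called 12.7% of all rows lower, and the call was lost without control replicate 2 (adjusted p = 0.0711) and without CP190 replicate 1 (adjusted p = 0.0539). The BEAF+CP190 interaction was -0.46 for Wdr24 (adjusted p = 0.00189) and -0.29 for mio (adjusted p = 0.0133), with 24.9% of all rows called lower. The mio call was lost without control replicate 2 (-0.25, adjusted p = 0.0574) and without CP190 replicate 1 (-0.22, adjusted p = 0.0553). Each crosses the array sets, and the part of the set in them was not tested, since it cannot be told apart from the knockdowns. In BEAF+CP190 only the double lies in the second set, so a difference between the sets enters that value in full. In SuHw+CP190 a shift shared by all groups of a set cancels, but a CP190 difference that varies with the set does not. Groups of 2 arrays were too small to be examined for outlying samples.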

How the results depend on the processing

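With 2 arrays per group and differences of at most 0.41 on the log2 scale in the comparisons of 2 groups that were run, single arrays decided several calls, and the array sets limit what any comparison with CTCF, SuHw or a double knockdown can show. The replicate numbers share no stated batch. Differences between replicates 1 and 2 correlated across rows at a median of 0.028 over 36 pairs of groups (-0.199 to 0.453). The replicate block changed none of 46 calls (mio in SuHw+CP190 against control -0.41, adjusted p = 5.95e-05). Of 558 alternative values of the 46 limma results, 517 kept direction and call.

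Under the additive model within the second set, which uses no control array, mio was no longer called for SuHw+CP190 (-0.32), CTCF+CP190 (-0.29), BEAF+CTCF (-0.23), BEAF+CP190 (-0.20), SuHw (-0.19) and CTCF (-0.16), nor Wdr24 for SuHw+CP190 (-0.14). These effects kept their direction. For them the model called 4.93% to 31.7% of all rows in either direction, and its SEs for mio were 0.069 to 0.11. The sign turned for CP190 in mio (-0.13) and Wdr24 (-0.039) and for BEAF in Wdr24 (-0.046). With only the groups compared in the fit, Wdr24 lost its calls in CP190 (0.26) and SuHw+CP190 (-0.19) against control and in the SuHw+CP190 interaction (-0.36). With arrays centred on their medians it lost that in SuHw+CP190 against control (-0.18), and CTCF against SuHw turned to 0.00097. With quantile normalization CTCF+CP190 against CTCF turned to -0.0077 and CTCF against SuHw to 0.0017 in Wdr24.

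Leaving out each array in turn moved Wdr24 between 0.18 and 0.33 in CP190 and between -0.27 and -0.11 in SuHw+CP190 against control, and between -0.44 and -0.28 in the SuHw+CP190 interaction. For mio the range was -1e-04 to 0.14 in CP190 against control, -0.36 to -0.22 in the BEAF+CP190 interaction, -0.28 to -0.14 in that of CTCF+CP190, called without CP190 replicate 2, and -0.048 to 0.031 in that of BEAF+CTCF. Uncalled differences that changed sign were CTCF against SuHw (mio -0.013 to 0.11, Wdr24 -0.052 to 0.0097), CTCF+CP190 against SuHw+CP190 in mio (-0.0031 to 0.050) and, in Wdr24, BEAF+CTCF against CTCF (-0.049 to 0.022), CTCF+CP190 against CTCF (-0.043 to 0.093), BEAF+CTCF against CTCF+CP190 (-0.11 to 0.030), BEAF+CP190 against CTCF+CP190 (-0.084 to 0.051) and BEAF+CP190 against BEAF+CTCF (-0.036 to 0.079). The correlation of the genes in the second set ran from 0.329 to 0.661. With a window of 0.1 the share of like rows below mio was 30.3% in CTCF, 26.9% in SuHw, 26.1% in BEAF+CP190, 23.6% in BEAF+CTCF and 17.4% in SuHw+CP190. The cause of these changes was not tested.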
